A study of Mus musculus with 217 samples.

Results

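The comparison set the 6 hr response of brain endothelium to lipopolysaccharide (LPS) against that of heart endothelium, as the interaction of tissue and time. Its members were the libraries labelled brain or heart at 0 or 6 hr, after the count files of each library were summed and libraries with under 3% of reads on genes were left out. They made up 20 of the 98 libraries of the series, 5 in each of 4 groups, and 4 further libraries of these groups held 2.28% to 2.54% of reads on genes and were not used here. The lowest share among the 20 was 43.7%. All groups came from adult Cdh5CreERT2/+; Rpl22HA/+ mice on a C57BL/6J background, which at 4 to 6 weeks of age had received 4 doses of 5 mg tamoxifen by gavage, with a day between doses. Tamoxifen activates a Cre recombinase driven by Cdh5, a gene of endothelial cells, and the ribosomal protein RPL22 then carries an HA tag in the cells that express it. An antibody against the tag pulled ribosomes with their RNA out of homogenized whole tissue, so the pull-down enriches endothelial RNA without sorting cells. Mice of the 6 hr groups had received 10 mg/kg LPS intraperitoneally, and those of the 0 hr groups were labelled control. The 4 brain and heart groups held 8757674 to 26666744 counts on genes per library. The medians were 22280189 for brain at 0 hr, 24008213 for brain at 6 hr, 24789196 for heart at 0 hr and 22251361 for heart at 6 hr. At these depths 3 counts correspond to 0.113 to 0.343 CPM (counts scaled to 1000000 per library), a limit that covers counting error only. Nothing in the labels says that the libraries of a group come from separate animals.

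LPS is a component of the outer membrane of Gram-negative bacteria, and endothelial cells sense it through TLR4 with its partners CD14 and MD-2. The signal passes through MyD88 and TRIF to NF-kappaB and interferon regulatory factors, which switch on chemokines, adhesion molecules, cytokines and interferon-stimulated genes. Brain endothelium forms the blood-brain barrier with tight junctions and dedicated carriers for glucose, amino acids and lipids, whereas heart capillaries are specialized for taking up fatty acids.

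The label was checked first against marker genes. 20 pan-endothelial markers, Pecam1, Cdh5 and Tek among them, were detected in each group, with a summed level of 5337 CPM (SD 1513, n = 5) in brain at 0 hr. Heart at 0 hr had 19388 CPM (SD 1110, n = 5) of them. In the brain libraries 20 neuron markers summed to 8191 CPM (SD 4218) at 0 hr and 11472 CPM (SD 4830) at 6 hr. Snap25 was the most abundant of them at 1442 and 1988 CPM. At the same times oligodendrocyte markers summed to 4720 and 6109 CPM and astrocyte markers to 4234 and 5066 CPM. The pan-endothelial sum in brain at 6 hr was 3513 CPM. The brain libraries of library series 1 (0 hr replicates 1 and 2, 6 hr replicate 6) had the lowest neuron sums, from 3008 to 5088 CPM, against 7729 to 16048 CPM in series 2. Neuron sums were below the endothelial sums in brain 0 hr replicates 1 (3008 against 5012 CPM) and 2 (4498 against 7875 CPM) and above them in the other brain libraries. In heart, 20 cardiomyocyte markers summed to 8613 CPM (SD 2290) at 0 hr and 12365 CPM (SD 5046) at 6 hr, with Mb the most abundant at 1299 and 1938 CPM. Which cells the neuron, oligodendrocyte, astrocyte and cardiomyocyte transcripts come from, and what part they had in the results, was not tested. Library series is a grouping read from the pattern of the deposited file names, which may be the sequencing batch, with 2 series 1 and 3 series 2 libraries in each 0 hr group and 1 and 4 in each 6 hr group.

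2 libraries labelled 6 hr lay near the baseline of their tissue. Across 8033 genes, the library labelled brain 6 hr replicate 6 had a median correlation of 0.907 with the brain 0 hr libraries and of 0.754 with the other brain 6 hr libraries. The library labelled heart 6 hr replicate 5 had 0.968 and 0.653 in the same comparison. Both are the only series 1 libraries of their group. Cxcl1 (ENSMUSG00000029380.11, chr5:90891241-90893115, build mm10), a neutrophil-attracting chemokine induced by LPS, shows the split: its log2 CPM was -0.49, 0.42, -0.20, 1.33 and 0.92 in brain at 0 hr, in the order of replicates 1 to 5, and 10.89, 11.58, 10.32, 7.97 and 0.64 at 6 hr, in the order of replicates 1, 2, 3, 4 and 6. In heart, Cxcl1 was 2.53, 2.01, 2.36, 2.86 and 2.13 at 0 hr and 11.28, 12.23, 11.61, 10.39 and 2.24 at 6 hr, in the order of replicates 1 to 5. The last value of each 6 hr series of numbers lies among the 0 hr values, and the other 4 lie far above them. Lcn2 (ENSMUSG00000026822.14, chr2:32384633-32388252), an iron-sequestering protein of the acute phase, was 4.27, 4.57, 5.34, 4.58 and 2.60 in brain at 0 hr and 12.48, 12.38, 13.11, 12.95 and 8.33 at 6 hr. The heart values of Lcn2 were 4.27, 3.09, 4.44, 4.11 and 3.94 at 0 hr and 11.77, 12.92, 12.48, 12.66 and 5.75 at 6 hr. For Lcn2 both of these libraries were above every 0 hr library of their tissue and below the other 6 hr libraries. Their deviations from the group means were correlated at 0.757, the highest of all pairs of a brain and a heart library of the same time, and at 0.334 after library series was taken out. Each of the 2 libraries was picked out for lacking the change of its group, which by itself raises this correlation. It therefore cannot tell whether the 2 libraries share an animal. The deposited file names of both carry no animal number, and whether they come from 1 animal is not stated. No source states why the 2 libraries lie near baseline, and the cause was not tested. They stay in the test because the labels place them there, and the calls of the gene groups and the key genes are also given without them, a choice made after seeing the data.

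**Figure D1:**
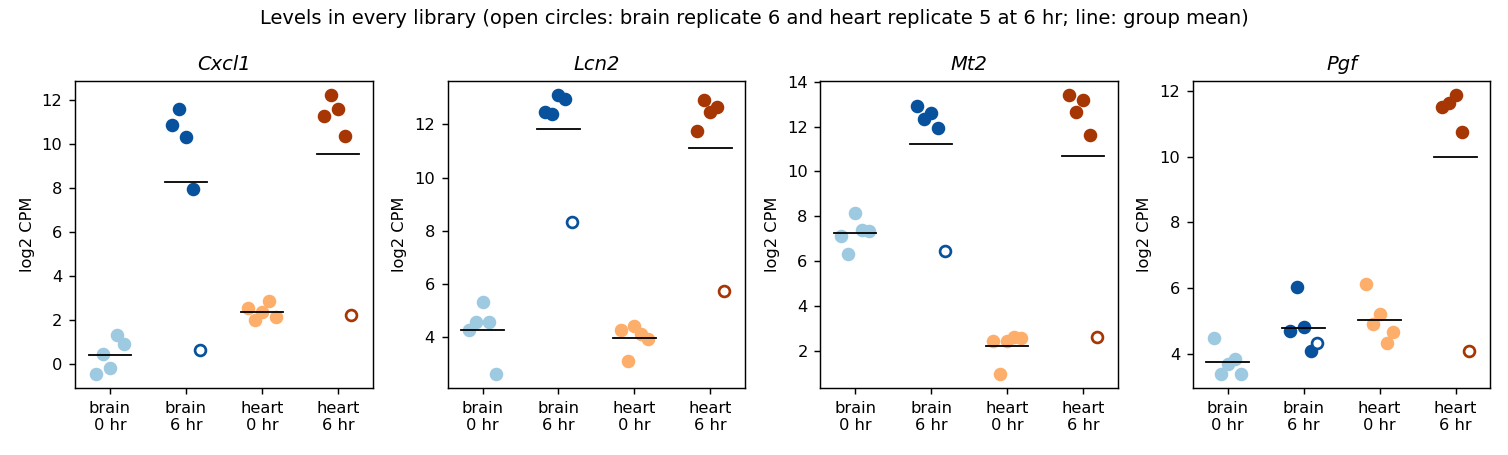
Log2 CPM of Cxcl1, Lcn2, Mt2 and Pgf (vertical axes) in each of the 20 libraries, by group on the horizontal axis, with a line at the group mean. Open circles mark brain replicate 6 and heart replicate 5 at 6 hr, whose Cxcl1 values were 0.64 and 2.24 against 7.97 to 12.23 in the other 6 hr libraries.

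In short, more genes were called in heart than in brain, and with all 20 libraries most interaction calls were of genes called up in heart, a lean that some other settings did not keep. Cxcl1 and Lcn2 rose in both tissues with no interaction called. Other chemokine and cytokine genes had such a call, among them Ccl11 and Csf1. Some carriers of the blood-brain barrier, growth factors and ribosomal protein genes had a higher response in heart. Of these, the calls of Csf1, Rplp2, Bmp4 and Pgf were lost in 14, 13, 11 and 7 of 20 leave-one-out fits. The calls of Slc7a5 and Mfsd2a held in all 20 such fits, and that of Slc2a1 in 15. Adamts1 had a higher response in brain, as did Ccl11 and C3, whose calls were lost in 17 of the 20. Prg4, Esm1 and Car4 moved in opposite directions. Of 17909 genes tested, 549 passed the interaction test (edgeR, adjusted p under 0.05; 3.07%), 128 with a positive value (0.715%), meaning a higher response in brain, and 421 with a negative value (2.35%). A response is the log2 difference between 6 and 0 hr, adjusted for library series, and the interaction is the brain response minus the heart response. In brain 413 genes passed (2.31%), 293 up (1.64%) and 120 down (0.67%), and in heart 6494 passed (36.3%), 3482 up (19.4%) and 3012 down (16.8%). The median over all genes tested was -0.01 for the interaction, 0.00 for brain and -0.03 for heart, and the interaction had an unadjusted p under 0.05 for 4806 genes. Of the 421 negative calls, 412 were genes called up in heart and not called in brain. Of the 128 positive calls, 110 were genes called down in heart and not called in brain, and 10 were called up in brain and not in heart. Genes called the same way in both tissues with no interaction call numbered 230 up and 66 down.

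These counts and their balance are unstable. With the mouse read from file names as a block, there were 187 positive and 234 negative interaction calls, which kept 248 of the 549. C3, Bmp4, Klf2, Maf, Nampt and Peg10 lost their call there, and the closing section lists further named genes. No label states shared animals. Without the 2 libraries near baseline, 5449 of 18210 genes passed the interaction test (29.9%), 2585 positive (14.2%) and 2864 negative (15.7%). Brain then had 2268 calls (12.5%), 1067 up (5.86%) and 1201 down (6.6%), and heart 9064 (49.8%), 4485 up (24.6%) and 4579 down (25.1%). All 549 interaction calls and all 413 brain calls of the full set were also called there, with the same sign, as were 3447 of the 3482 heart calls up and 2962 of the 3012 down. Of the genes tested in both sets, 2196 negative calls were then of genes called up in heart and not in brain, and 2230 positive calls of genes called down in heart and not in brain. Limma-voom turned the balance on the 20 libraries, with 569 positive and 317 negative calls, and within series 2 there were 2270 and 2244. Leaving out heart 6 hr replicate 5 alone gave 2720 positive and 2864 negative interaction calls, and leaving out brain 6 hr replicate 6 alone gave 292 and 600. Leaving out 1 of the other libraries mostly lowered the interaction counts: positive calls fell to between 26 and 75 in 14 of the 20 fits that each left out 1 library, and negative calls to between 84 and 258 in 15. Positive calls stayed within 1.5 times of 128 without brain 6 hr replicate 2, heart 0 hr replicate 1 or 2, or heart 6 hr replicate 4, and negative calls likewise without the same 3 heart libraries or brain 6 hr replicate 6. Brain calls up were 73, 55 and 83 without brain 0 hr replicate 3, 4 or 5, 167, 169 and 164 without brain 6 hr replicate 1, 2 or 3, 577 without brain 6 hr replicate 6 and 638 without heart 6 hr replicate 5. Brain calls down were 27, 14 and 23 without brain 0 hr replicate 3, 4 or 5, 27, 47, 27 and 46 without brain 6 hr replicate 1, 2, 3 or 4, 586 without brain 6 hr replicate 6 and 337 without heart 6 hr replicate 5. The heart 6 hr libraries of series 2 also differed in read composition: 44.2%, 42.5%, 49.5% and 41.2% of their reads aligned to several places, against 27.6% in replicate 5 and 30.4% to 35.3% at heart 0 hr. Their scaling factors were 0.714, 0.732, 0.694 and 0.853, against 1.04 in replicate 5, and the part of this composition in the heart response was not tested.

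**Figure D2:**
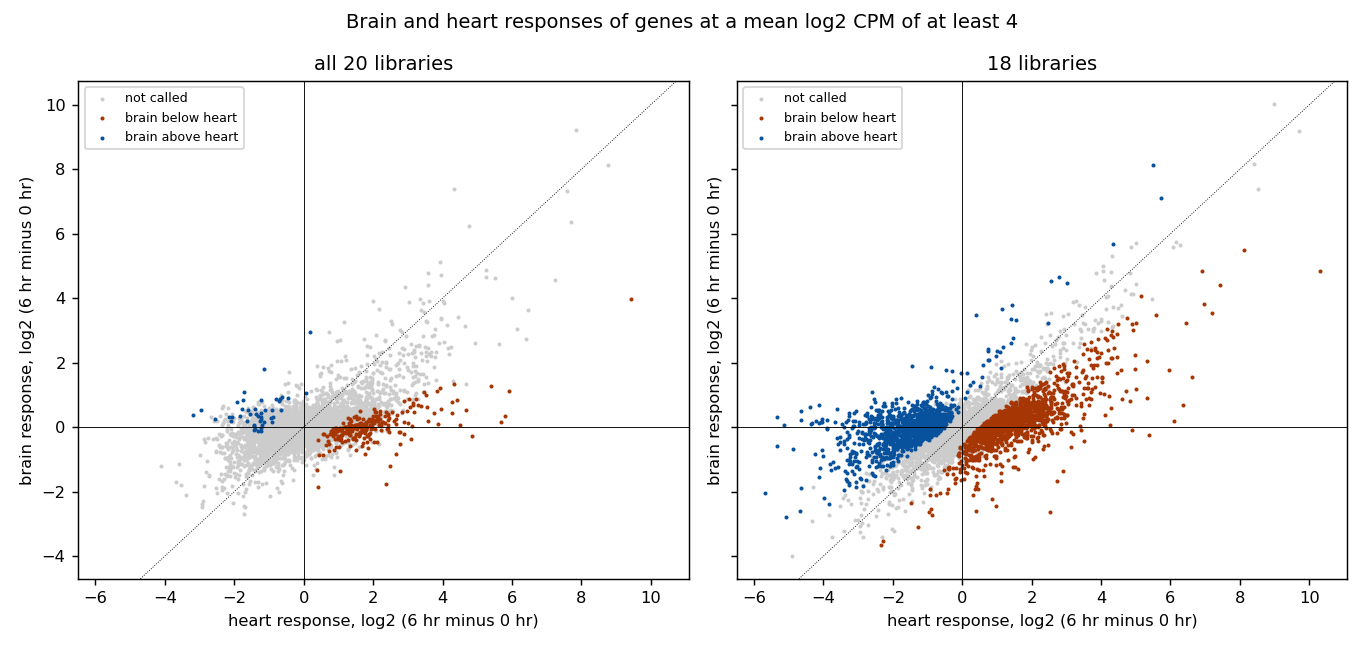
Brain response (vertical axis, log2) against heart response (horizontal axis, log2) for genes whose mean level reached 4 log2 CPM, over all 20 libraries and over the 18 left without the libraries near baseline. Coloured points are genes called in the interaction, 549 of all genes tested with 20 libraries and 5449 with 18.

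3 genes had responses in opposite directions, each called in both tissues. Prg4 (ENSMUSG00000006014.16, chr1:150449412-150466165) encodes lubricin, a secreted glycoprotein that lubricates joint surfaces. Its log2 CPM was 7.75, 7.67, 6.33, 7.64 and 5.94 in brain at 0 hr and 9.10, 8.30, 8.64, 9.34 and 8.53 at 6 hr. In heart it was 5.56, 6.07, 5.95, 5.98 and 5.41 at 0 hr and 4.09, 4.16, 4.16, 4.38 and 5.82 at 6 hr. Every brain 6 hr library, replicate 6 included, lay above every brain 0 hr library, and 4 heart 6 hr libraries lay below every heart 0 hr library, with replicate 5 inside the 0 hr range. Prg4 rose by 1.81 in brain (adjusted p = 0.0105) and fell with a response of -1.14 in heart (adjusted p = 0.0140). The interaction was 2.94 (SE 0.488, adjusted p = 0.00683), and 3.35 (adjusted p = 2.37e-05) without the 2 libraries. Exons of Prg4 overlap exons of a gene on the opposite strand by 204 bases, so its counts are uncertain. Car4 (ENSMUSG00000000805.18, chr11:84957786-84966044), a membrane-bound carbonic anhydrase of capillaries, went the other way. Brain libraries had 7.74, 8.18, 7.71, 7.83 and 7.96 at 0 hr and 5.96, 6.34, 6.36, 6.45 and 7.24 at 6 hr, and the groups did not overlap. Heart libraries had 7.77, 7.99, 8.72, 8.41 and 8.11 at 0 hr and 9.65, 9.77, 9.03, 9.10 and 8.60 at 6 hr. The heart groups overlapped only through 6 hr replicate 5, whose value was below that of 0 hr replicate 3. Car4 fell in brain, with a response of -1.36 (adjusted p = 0.0101), and rose by 1.05 in heart (adjusted p = 0.00574). Its interaction was -2.41 (SE 0.371, adjusted p = 0.00579), and -2.81 (adjusted p = 3.07e-06) without the 2 libraries. Esm1 (ENSMUSG00000042379.8, chr13:113209659-113218098), a proteoglycan secreted by VEGF-stimulated tip cells, was 3.44, 2.44, 1.66, 1.88 and 0.92 in brain at 0 hr and 3.88, 4.51, 3.64, 3.56 and 3.06 at 6 hr. The heart values were 5.16, 4.82, 5.54, 4.51 and 5.34 at 0 hr and 2.19, 2.54, 1.36, 2.41 and 4.84 at 6 hr. Esm1 was higher in 4 brain 6 hr libraries than in any brain 0 hr library and lower in 4 heart 6 hr libraries than in any heart 0 hr library, and in each tissue the library near baseline made the groups overlap. Its responses were 2.00 in brain (adjusted p = 0.0394) and -2.13 in heart (adjusted p = 0.00313), with an interaction of 4.13 (SE 0.717, adjusted p = 0.00848), and 4.81 (adjusted p = 5.16e-06) without the 2 libraries. These 3 calls held in all 20 fits that each left out 1 library.

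**Figure D3:**
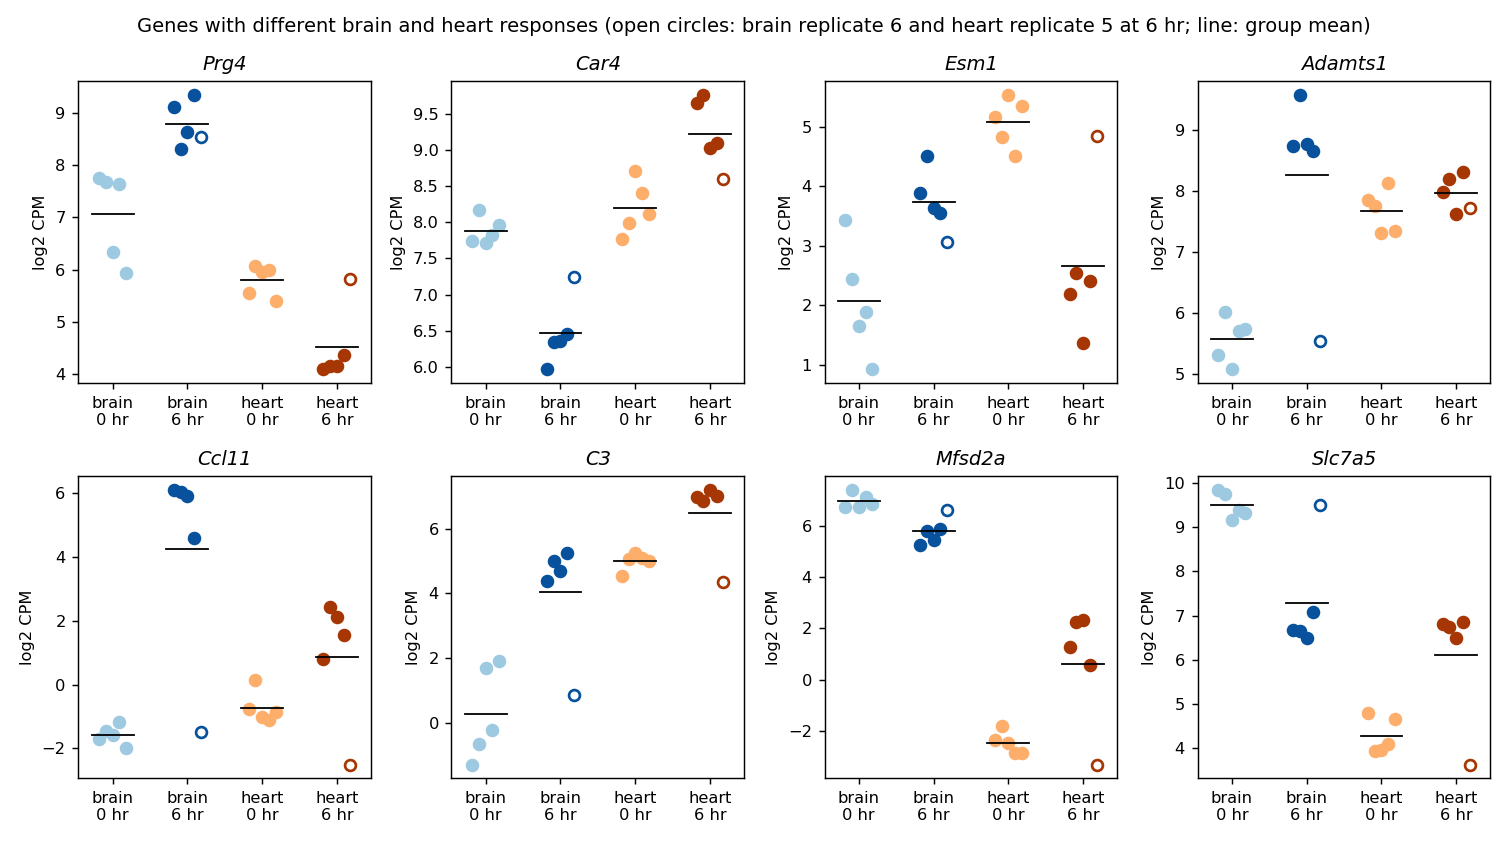
Log2 CPM (vertical axes) of Prg4, Car4, Esm1, Adamts1, Ccl11, C3, Mfsd2a and Slc7a5 in each library, by group on the horizontal axis, with a line at the group mean and open circles for brain replicate 6 and heart replicate 5 at 6 hr. Prg4 lies between 8.30 and 9.34 in the brain 6 hr libraries and between 4.09 and 4.38 in 4 of 5 heart 6 hr libraries.

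Genes with a higher response in brain than in heart included 10 that were called up in brain and not in heart. Adamts1 (ENSMUSG00000022893.14, chr16:85793827-85803113), a secreted protease of the vessel matrix, was 5.31, 6.01, 5.08, 5.71 and 5.74 in brain at 0 hr and 8.75, 9.58, 8.78, 8.67 and 5.55 at 6 hr. In heart, Adamts1 was 7.85, 7.76, 7.32, 8.14 and 7.35 at 0 hr and 7.99, 8.20, 7.62, 8.32 and 7.72 at 6 hr. 4 brain 6 hr libraries exceeded every brain 0 hr library, replicate 6 did not, and the heart groups overlapped. Adamts1 had a brain response of 2.96 (adjusted p = 0.00240) and a heart response of 0.19 (adjusted p = 0.770). The interaction was 2.77 (SE 0.586, adjusted p = 0.0209), 3.06 without the 2 libraries, and was called in all 20 leave-one-out fits. Ccl11 (ENSMUSG00000020676.2, chr11:82057823-82062955), the eosinophil chemokine eotaxin, was -1.71, -1.45, -1.58, -1.18 and -1.98 in brain at 0 hr and 6.11, 6.04, 5.92, 4.61 and -1.48 at 6 hr. In heart it was -0.76, 0.15, -1.01, -1.11 and -0.88 at 0 hr and 0.80, 2.42, 2.11, 1.54 and -2.51 at 6 hr. Outside the libraries near baseline, Ccl11 was above the 0 hr libraries in both tissues, and further above them in brain. Ccl11 rested on 2 to 9 counts per library in brain at 0 hr and 5 to 12 in heart at 0 hr. Its responses were 7.10 in brain (adjusted p = 0.00166) and 1.89 in heart (adjusted p = 0.129), with an interaction of 5.21 (SE 1.30, adjusted p = 0.0388). C3 (ENSMUSG00000024164.15, chr17:57203970-57228136), the central component of complement, was -1.29, -0.66, 1.69, -0.22 and 1.91 in brain at 0 hr and 4.39, 5.00, 4.70, 5.24 and 0.86 at 6 hr. The heart libraries had 4.54, 5.05, 5.25, 5.10 and 5.01 at 0 hr and 6.98, 6.85, 7.19, 7.02 and 4.36 at 6 hr. Again the 4 other 6 hr libraries of each tissue exceeded the 0 hr libraries and the library near baseline did not. C3 had a response of 3.44 in brain (adjusted p = 0.00192) and of 0.97 in heart (adjusted p = 0.136), with an interaction of 2.48 (SE 0.671, adjusted p = 0.0493). Both genes were, without the 2 libraries, called up in heart as well, and the interactions were 4.98 for Ccl11 and 2.19 for C3, both called. Each of these 2 interactions was called in 3 of the 20 leave-one-out fits. Adjusted p reached 0.0767 for Ccl11 without heart 6 hr replicate 1 and 0.0951 for C3 without brain 6 hr replicate 4. The C3 call was also lost with the file-name mouse as a block. The study had picked Ccl11 and C3 on these samples, so their response is not independent evidence. Other genes with a positive interaction call that were called up in brain and not in heart, named after their values were seen, were Tfpi2, a protease inhibitor of the matrix (interaction 3.06, brain 3.42), Stc1, a secreted glycoprotein hormone (2.94 and 3.23), Gpr65, an acid-sensing receptor (3.47 and 3.34), and Plk2, a stress-induced kinase (1.36 and 0.90). Bsg, the immunoglobulin-family partner of lactate carriers, and Il10rb, a subunit of interleukin 10 and interferon lambda receptors, were the 2 genes called in the interaction that fell in brain and were not called in heart, with brain responses of -1.86 and -1.31.

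Carriers of the blood-brain barrier move nutrients into the brain and drugs and waste out of it. Of 29 carriers, 5 had a negative interaction call and none a positive one, with a median of -1.05 beside -0.01 for all genes tested. Of all genes tested 2.35% were negative. 8 fell and none rose in brain, where 0.67% of all genes tested fell. A fall in brain was not particular to carriers: 7 of 20 pan-endothelial markers and 4 of 23 Wnt pathway genes fell there too. Of 20 junction genes and 29 lipid handling genes none fell in brain. In heart 10 rose and 6 fell, where 19.4% of all genes tested rose and 16.8% fell. DESeq2 gave 11 negative interaction calls among the carriers, and 1227 among all 17909 genes tested. Without the 2 libraries 17 had a negative and 4 a positive interaction call, beside 15.7% and 14.2% of all genes tested. In that setting 21 fell in brain, beside 6.6% of all genes, and 12 rose and 8 fell in heart, beside 24.6% and 25.1%. Slc7a5 (ENSMUSG00000040010.10, chr8:121881150-121907694), the light chain of the large neutral amino acid carrier, was 9.84, 9.76, 9.16, 9.39 and 9.33 in brain at 0 hr and 6.67, 6.65, 6.51, 7.07 and 9.50 at 6 hr. In heart its log2 CPM was 4.80, 3.94, 3.96, 4.10 and 4.66 at 0 hr and 6.80, 6.73, 6.49, 6.85 and 3.63 at 6 hr. 4 libraries of each 6 hr group met between 6.49 and 7.07, below the brain and above the heart 0 hr libraries, while brain replicate 6 stayed in the 0 hr range and heart replicate 5 was below every 0 hr library. Slc7a5 had a brain response of -1.78 that missed the threshold (adjusted p = 0.0893) and rose by 2.36 in heart (adjusted p = 0.00389). Its interaction was -4.14 (SE 0.779, adjusted p = 0.0120), and without the 2 libraries -5.14, with a brain fall called at -2.62 (adjusted p = 1.46e-07). Mfsd2a (ENSMUSG00000028655.11, chr4:122946850-122961188) carries lysophosphatidylcholine with docosahexaenoic acid across the barrier. It was 6.73, 7.38, 6.72, 7.09 and 6.83 in brain at 0 hr and 5.25, 5.79, 5.45, 5.86 and 6.60 at 6 hr, with no overlap. The brain response of Mfsd2a was not called with all 20 libraries. In heart, Mfsd2a had 1, 2, 2, 1 and 1 counts at 0 hr and 37, 81, 68, 27 and 0 counts at 6 hr, so heart left the floor of 3 counts only in 4 libraries at 6 hr. Summed over the 5 libraries of each group these are 7 and 213 counts. Their ratio was 28.9 after scaling to the total counts on genes, without the scaling factors used for levels and tests. Its 95% exact binomial interval was 13.8 to 72.9, for counting error only. The fitted heart response of 5.13 (adjusted p = 0.000415) and interaction of -6.23 (SE 0.939, adjusted p = 0.00579; -6.75 without the 2 libraries) rest on these few counts and are no measured sizes. Both Slc7a5 and Mfsd2a were called in all 20 leave-one-out fits. Slc2a1 (ENSMUSG00000028645.11, chr4:119108711-119137983), the glucose carrier GLUT1, was 11.27, 11.14, 10.25, 10.59 and 10.14 in brain at 0 hr and 9.56, 10.43, 9.67, 10.14 and 10.72 at 6 hr. Heart libraries had 4.96, 4.30, 4.64, 4.20 and 4.14 and 5.62, 6.79, 5.58, 6.57 and 4.96. Slc2a1 overlapped between times in brain, and in heart 4 of the 6 hr libraries were above all 0 hr libraries. The heart response was 1.70 (adjusted p = 0.00168), the brain response -0.49 (adjusted p = 0.656) and the interaction -2.19 (SE 0.468, adjusted p = 0.0221; -2.46 without the 2 libraries). Slc2a1 was called in 15 of 20 leave-one-out fits, with adjusted p up to 0.0516 without heart 0 hr replicate 5, and its exons overlap an opposite-strand gene by 105 bases. Slc7a1, a carrier of cationic amino acids, and Lrp8, a receptor for apolipoprotein E and reelin, completed the 5 calls together with Slc2a1, Slc7a5 and Mfsd2a, at -2.60 and -2.39. Carriers called down in brain with no interaction call included Slco1c1, which takes up thyroxine (-2.16), and Abcb1a, the efflux pump P-glycoprotein (-1.70).

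At a mean level of 4 log2 CPM or more, 42 genes had a negative and 31 a positive interaction call together with a call in a tissue and library shifts that did not overlap between tissues, where 893 of all genes tested had no such overlap (4.99%). The 12 largest per direction under this rule are named. Mt2 (-5.47), Pgf (-4.81) and Slc7a5 (-4.14) had larger negative interaction calls at this level. Their shifts overlapped between tissues only through the 2 libraries near baseline, so the rule left them out. Atp10a (ENSMUSG00000025324.8, chr7:58656166-58829420), a phospholipid flippase, led the negative side among genes that met the rule. It was 7.15, 7.79, 6.91, 7.43 and 7.17 in brain at 0 hr and 5.68, 5.77, 5.44, 5.38 and 7.26 at 6 hr. In heart, Atp10a was 2.75, 2.66, 2.42, 3.13 and 2.60 at 0 hr and 5.10, 5.42, 5.91, 4.87 and 3.10 at 6 hr. At 6 hr, 4 brain libraries were below and 4 heart libraries above every 0 hr library of their tissue, and the library near baseline stayed within the 0 hr range in both. Atp10a had an interaction of -3.72 (SE 0.578, adjusted p = 0.00579; -4.39 without the 2 libraries), a heart response of 2.50 (adjusted p = 0.000605) and a brain response of -1.22 (adjusted p = 0.122), and was called in all 20 leave-one-out fits. The others, besides Slc7a1, Car4 and Slc2a1, were the stress-induced regulator Nupr1 (-3.10), the cysteine dioxygenase Cdo1 (-3.09), the imprinted Peg10 (-2.31), Bsg (-2.28), Samd5 (-2.26), the transcription factor Maf (-2.22), the NAD-synthesis enzyme Nampt (-2.16) and Cd63-ps (-2.10), a pseudogene that may share reads with Cd63. All of these but Bsg and Car4 were called up in heart and not called in brain. Akap5 (ENSMUSG00000021057.15, chr12:76324891-76334153), a scaffold that anchors protein kinase A at membranes, led the positive side. Its brain values were 3.71, 4.30, 5.39, 5.65 and 5.70 at 0 hr and 5.84, 5.04, 5.88, 5.70 and 4.53 at 6 hr, with overlap. Its heart values were 5.55, 5.21, 5.43, 5.29 and 5.63 at 0 hr and -0.12, 1.15, 0.25, 0.54 and 4.45 at 6 hr. In heart at 6 hr replicate 5 was below the 0 hr range of Akap5 and the other 4 libraries were much further below it. The heart response was -3.18 (adjusted p = 0.00316), the brain response 0.38 (adjusted p = 0.911) and the interaction 3.56 (SE 0.963, adjusted p = 0.0493; 5.65 without the 2 libraries). The Akap5 call held in 3 of 20 leave-one-out fits, with adjusted p up to 0.101 without heart 6 hr replicate 1. The others, besides Prg4, were the intermediate filament gene Synm (2.82), the septin Sept4 (2.80), Sez6l2 (2.69), the monooxygenase Fmo1 (2.61), the kinase subunit Camk2b (2.48), the kinesin linker Sybu (2.39), the secreted protease Htra1 (2.34), Mmd (2.29), Eepd1 (2.18) and the aggrecan-cleaving protease Adamts5 (2.07). Each of these, Akap5 included, was called down in heart and not called in brain. Synm, Sybu and Maf overlap opposite-strand exons by 510, 207 and 440 bases and are uncertain.

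Without the 2 libraries 1752 genes met the same rule on the negative and 1137 on the positive side. In that setting the library shifts of 7375 of all 17896 genes compared did not overlap between tissues. The values in this paragraph are from those 18 libraries. The largest negative ones not yet named were the carbonic anhydrase Car13 (-5.90), the sphingosine kinase Sphk1 (-5.68), the secreted kinase-family protein Fjx1 (-5.61), the actin-binding Dbn1 (-4.96), the platelet-derived growth factor Pdgfa (-4.42), the stress sensor Gadd45b (-4.19) and Tent5a (-4.19), all called up in heart, with Mt2, Slc7a5, Pgf, Atp10a and Bmp4 completing the 12. These 12 were called in the full set as well, where most had shifts that overlapped between tissues. On the positive side Fam57b (5.22), the carbonic anhydrase-related Car8 (5.14), the calcium sensor Ncald (5.02), the tubulin-binding Tppp (4.89), the Toll-like receptor partner Tril (4.77), Wscd1 (4.47), Fam171a2 (4.44), the kinase scaffold Mapk8ip1 (4.29) and the actin regulator Coro2b (4.26) were called down in heart, and none of these 9 was called in the full set. Genes with opposite responses numbered 45 there, against 2 at this level in the full set, and included Slc7a5, Atp10a, Maf, Serpinb6b (brain -1.25, heart 1.45), the collagen Col15a1 (-1.19 and 1.15) and the Wnt-cleaving Trabd2b (-1.42 and 1.11).

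Gene groups below are ordered by role, from receptors to effectors, and were described by counts and medians, to be read beside the calls over all genes tested. For the interaction these were 0.715% positive and 2.35% negative, for brain 1.64% up and 0.67% down, and for heart 19.4% up and 16.8% down. Without the 2 libraries 14.2% were positive and 15.7% negative, so counts near these shares do not set a group apart, and a call in 1 tissue alone does not show a difference between tissues. Brain counts of most groups are higher without the 2 libraries. With DESeq2 on all 20 libraries, calls up in brain were 7 for TLR4 and adaptor genes, 6 for the IL-6 family, 9 for immediate early factors, 10 for MHC class I genes, 7 for coagulation genes and 6 for cell death genes, and 8 Wnt genes were called down in brain. Negative interaction calls with DESeq2 were 7 for NF-kappaB genes, 5 for immediate early factors, 4 each for MHC class I, adhesion and metallothionein genes, 3 each for interferon-stimulated genes and for TNF, IL-1 and interferon receptors, 2 each for TLR4 and junction genes, and 6 each for cell death genes and for cytokines. Positive ones were 4 each for cholesterol and lipid handling genes, 3 for glucocorticoid-responsive genes and 2 each for CC chemokines, acute-phase, clock, coagulation, angiopoietin and VEGF axis and core transcription factor genes. Of 14 TLR4 receptor and adaptor genes none had an interaction call (median -0.28), 2 rose in brain and 8 in heart. Cd14, the co-receptor that hands LPS to TLR4, rose by 5.42 in brain (adjusted p = 0.00649) and 4.08 in heart (adjusted p = 0.00279), and Tlr4 itself had 0.88 and 0.10, neither called. 1 of these genes, Cd14, had a positive and 5 had a negative interaction call without the 2 libraries (called in brain 7 up and 1 down, in heart 8 up and 1 down). Of 12 TNF, IL-1 and interferon receptor genes none had an interaction call (median -0.49), 2 rose in brain and 6 in heart, with 1 positive and 5 negative calls without the 2 libraries (called in brain 6 up and 1 down, in heart 10 up and 1 down). The TNF receptor Tnfrsf1a rose in brain (1.19, adjusted p = 0.0220), where heart had 0.35. Among 14 IL-6 family, STAT3 and SOCS genes 13 rose and 1 fell in heart, and 2 rose in brain, the receptor subunit Osmr and the feedback inhibitor Socs3. 2 of them had a negative interaction call, the cytokine signalling inhibitor Socs1 (-3.76, adjusted p = 0.0483) and the interleukin 11 receptor Il11ra1 (-1.21, adjusted p = 0.0497), and both were lost when the libraries were scaled by RLE factors. The group's median was -0.51, and without the 2 libraries (called in brain 10 up, in heart 13 up and 1 down) it held 1 positive and 4 negative calls.

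Among transcription regulators, 20 of 22 NF-kappaB factors and feedback inhibitors rose in heart and 7 in brain, and none fell. Their interaction median was -0.87, with 1 call, the nuclear inhibitor Nfkbid (-3.07, adjusted p = 0.0380), and without the 2 libraries (called in brain 19 up, in heart 21 up) 10 negative calls and 1 positive, Tnip3. Nfkb2, which encodes p100 and p52, rose in both, by 2.46 in brain and 2.47 in heart (interaction -0.01). Of 23 immediate early factors 4 rose in brain, and 18 rose and 2 fell in heart, with an interaction median of -1.001. Egr3, a zinc-finger factor, and Klf2 had a negative call, 10 genes without the 2 libraries (called in brain 13 up and 1 down, in heart 20 up and 2 down), where 2 were positive. Klf2 (ENSMUSG00000055148.7, chr8:72319033-72321656), a flow-induced factor that keeps endothelium quiescent, was 8.48, 8.68, 8.28, 8.27 and 7.36 in brain at 0 hr and 7.51, 7.35, 7.79, 8.04 and 8.43 at 6 hr. In heart, Klf2 was 9.18, 8.82, 9.92, 9.25 and 8.88 at 0 hr and 10.44, 10.27, 10.21, 10.60 and 10.06 at 6 hr. The heart groups did not overlap even with replicate 5, while the brain groups did. Klf2 had responses of -0.37 in brain (adjusted p = 0.696) and 1.08 in heart (adjusted p = 0.00546), with an interaction of -1.45 (SE 0.378, adjusted p = 0.0441; -1.67 without the 2 libraries). The call held in 4 of 20 leave-one-out fits, with adjusted p up to 0.0955 without brain 0 hr replicate 2. It was lost with the file-name mouse as a block.

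Chemokines draw leukocytes to the vessel wall. Of 13 CXC and related chemokines 6 rose in brain, and 12 rose and 1 fell in heart. The one that fell was Cxcl12, a chemokine of resting endothelium (-2.87, adjusted p = 0.00222). Cxcl1 rose by 9.22 in brain (adjusted p = 0.00538) and 7.84 in heart (adjusted p = 0.00214), and its interaction of 1.38 was not called (SE 1.55, adjusted p = 0.596; 1.06 without the 2 libraries). Cxcl2 and Cxcl3, which attract neutrophils through the same receptor, were also called up in both tissues. Cxcl9, a chemokine for T cells, was called up in both as well. The promoter windows of these 4 genes are shown because the genes rose together and their promoters hold the NF-kappaB motif letters GGGANTTTC, in capitals, on the shown or the reverse strand. The sequences are from RefSeq, build GRCm38.p6, on the strand of the gene: chr5:90891164-90891192 for Cxcl1, chr5:90903792-90903820 for Cxcl2 and chr5:90786018-90786046 for Cxcl3, plus strand, and chr5:92328215-92328243 for Cxcl9, minus strand.
Cxcl1: cctgtactccGGGAATTTCcctggcccgg
Cxcl2: cctgagctcaGGGAATTTCcctggtcccc
Cxcl3: gagctgcgggGGGAATTTCcccagcccgg
Cxcl9: agaacatgcaGAAATTCCCtgggatctga

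Searched on both strands from 250 bases before to 50 after each gene start, these letters were in 4 of the 11 promoters of this family in the table (36.4%), 306 of all 27025 promoters (1.13%) and 129 of the 12388 tested genes with a promoter (1.04%). Among genes with an interaction call they were in 2 of 300 negative (0.667%) and 2 of 89 positive ones (2.25%). Another 2 motifs were searched in the same way. The core of the metal response element, TGCNCNC, was in 7 of 9 promoters of metallothionein and zinc genes (77.8%), 13600 of all promoters (50.3%) and 7410 of 12388 promoters of tested genes (59.8%), and a higher share, 15 of 18 (83.3%), held it among Notch and arterial genes. The composite of C/EBP and ATF sites, TGATGNAAT, was in 1 of 300 promoters of genes with a negative call (0.333%), 265 of all promoters (0.981%) and 61 of the tested genes' promoters (0.492%). The NF-kappaB and metal motifs had first been searched in longer spellings, and motifs, spellings and the promoters shown were chosen after expression values and matches had been seen, so a match is a description of letters only. Among the other chemokines of this family, Pf4, platelet factor 4 (-4.16, adjusted p = 0.0193), and Cx3cl1, the membrane-bound fractalkine (-2.09, adjusted p = 0.0375), had a negative interaction call, and both rose in heart. The family's interaction median was -1.36, with 1 positive and 4 negative calls without the 2 libraries (called in brain 9 up and 1 down, in heart 12 up and 1 down). Of 15 CC chemokines 9 rose in brain, 10 rose and 1 fell in heart, and Ccl11 had the only interaction call. Ccl2, which attracts monocytes, rose by 8.14 in brain and 8.78 in heart (interaction -0.64, not called). The interaction median of the CC chemokines was -0.29, and 0.11 when tested with DESeq2, with 2 positive and 2 negative calls without the 2 libraries (called in brain 11 up, in heart 12 up and 1 down).

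Cytokines and growth factors signal to leukocytes and to neighbouring cells. Of 18 tested, 10 rose in brain, 16 in heart and none fell, and 4 had a negative interaction call (median -1.02). These were Csf1, Il34 (-3.16), the second ligand of the CSF1 receptor, Il18 (-2.42), an activator of interferon gamma release, and the activin subunit Inhba (-2.39), and without the 2 libraries (called in brain 12 up, in heart 16 up) 6 were negative and 1 positive. Csf1 (ENSMUSG00000014599.10, chr3:107741048-107760469), the growth factor of macrophages, was 6.24, 6.20, 5.39, 5.84 and 5.32 in brain at 0 hr and 7.57, 7.77, 7.32, 6.28 and 6.00 at 6 hr. Heart had 6.39, 6.60, 6.29, 6.70 and 6.34 at 0 hr and 11.05, 10.99, 10.94, 9.89 and 6.99 at 6 hr. In heart no 6 hr library fell into the 0 hr range, and in brain replicate 6 alone did. Csf1 rose by 3.85 in heart (adjusted p = 0.000303) against 1.12 in brain (adjusted p = 0.374), an interaction of -2.73 (SE 0.682, adjusted p = 0.0397; -2.78 without the 2 libraries), called in 6 of 20 leave-one-out fits, with adjusted p up to 0.0868 without brain 0 hr replicate 2. Il6, Tnf, Il1rn and Ccl3, with Cxcl5 and Acod1, an enzyme that makes itaconate, had at most 3 counts in every library of 1 of the 0 hr groups, so no fold change is given for them, and the fitted Acod1 values that changed sign between settings are no measure of one. Cxcl5 was called up in heart and not in brain, and the other 5 were called up in both tissues, and none of the 6 had an interaction call, though Cxcl5 did without the 2 libraries. List medians of chemokines and cytokines include fitted values of such genes. Of the 16 genes that the study had chosen on these samples, Ccl11 and C3 had an interaction call. Among the remaining ones, Timp1, an inhibitor of matrix proteases, had 4.62 in brain and 5.51 in heart, Serpina3n, an inhibitor of serine proteases, 4.35 and 2.92, and Il1a 4.71 and 3.25, each called up in both. Il1b had 4.77 and 5.03, both called, and Tspan2, a tetraspanin, 0.32 in brain, not called, and -2.67 in heart, called down (interaction adjusted p = 0.0593, and 4.32e-06 without the 2 libraries).

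Leukocyte adhesion genes were split. Of 19 tested, 3 rose and 2 fell in brain, and 9 rose and 6 fell in heart, with an interaction median of -0.08 and 1 call, Vcam1. Vcam1 (ENSMUSG00000027962.14, chr3:116109949-116129688) binds leukocyte integrins and holds rolling cells on the vessel wall. It was 7.88, 7.65, 7.16, 7.62 and 6.54 in brain at 0 hr and 8.91, 8.94, 8.70, 8.39 and 7.84 at 6 hr. In heart, Vcam1 was 7.29, 7.25, 7.63, 7.57 and 7.39 at 0 hr and 11.88, 11.54, 11.28, 10.55 and 8.49 at 6 hr. All heart 6 hr libraries, replicate 5 included, lay above the 0 hr libraries, and brain overlapped only through replicate 6. Vcam1 had responses of 3.53 in heart (adjusted p = 0.000175) and 0.99 in brain (adjusted p = 0.304), and an interaction of -2.54 (SE 0.564, adjusted p = 0.0252; -2.62 without the 2 libraries), called in 10 of 20 leave-one-out fits, with adjusted p up to 0.0598 without brain 0 hr replicate 1. P-selectin, Selp, rose by 7.25 in brain and 6.19 in heart and Icam1 by 3.40 and 3.95, neither with an interaction call, while Sele, E-selectin, had 4.49 in brain (adjusted p = 0.0505) and rose by 5.13 in heart. Exons of Vcam1 and Selp overlap opposite-strand exons by 61 and 624 bases. The adhesion genes had, without the 2 libraries (called in brain 6 up and 2 down, in heart 9 up and 7 down), 3 positive and 5 negative calls. Of 19 acute-phase genes 15 rose in brain and 17 in heart, and C3 had the only interaction call (median -0.34), which RLE scaling removed. Lcn2 rose by 7.32 in brain (adjusted p = 0.00121) and 7.57 in heart (adjusted p = 0.000212), with an interaction of -0.25 (SE 1.03, adjusted p = 0.918; -0.23 without the 2 libraries). Saa3, a serum amyloid A of tissues, rose by 9.09 and 10.96, and the Saa and Serpina3 families have near-identical members whose counts are uncertain. 4 acute-phase genes had a positive and 1 a negative call without the 2 libraries (called in brain 18 up, in heart 18 up).

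Interferon-stimulated genes encode antiviral proteins and amplify the interferon signal. Of 52 tested, 33 rose in brain (median 2.12) and 49 in heart (median 2.72), and none fell. The interaction median was -0.67, with 1 call, Ifit1bl1 (-2.02, adjusted p = 0.0408), a member of the Ifit family whose paralogs may share reads. Without the 2 libraries 49 rose in brain and 51 in heart, with 13 negative interaction calls and 1 positive, Phf11d. Rsad2, an antiviral radical enzyme, rose by 3.92 in brain and 3.61 in heart, and Irf7, the factor that amplifies interferon signals, by 2.24 and 2.50. Guanylate-binding proteins rose in 5 of 10 cases in brain and 9 in heart with no interaction call (median -0.54), and 2 negative calls without the 2 libraries (called in brain 10 up, in heart 10 up). Of 22 MHC class I presentation genes 2 rose in brain and 17 in heart, with no interaction call (median -0.78), and 11 negative and 1 positive calls without the 2 libraries (called in brain 19 up, in heart 20 up). Nlrc5, the transactivator of these genes, rose by 3.04 and 3.77. The absence of a call does not show equal responses.

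**Figure D4:**
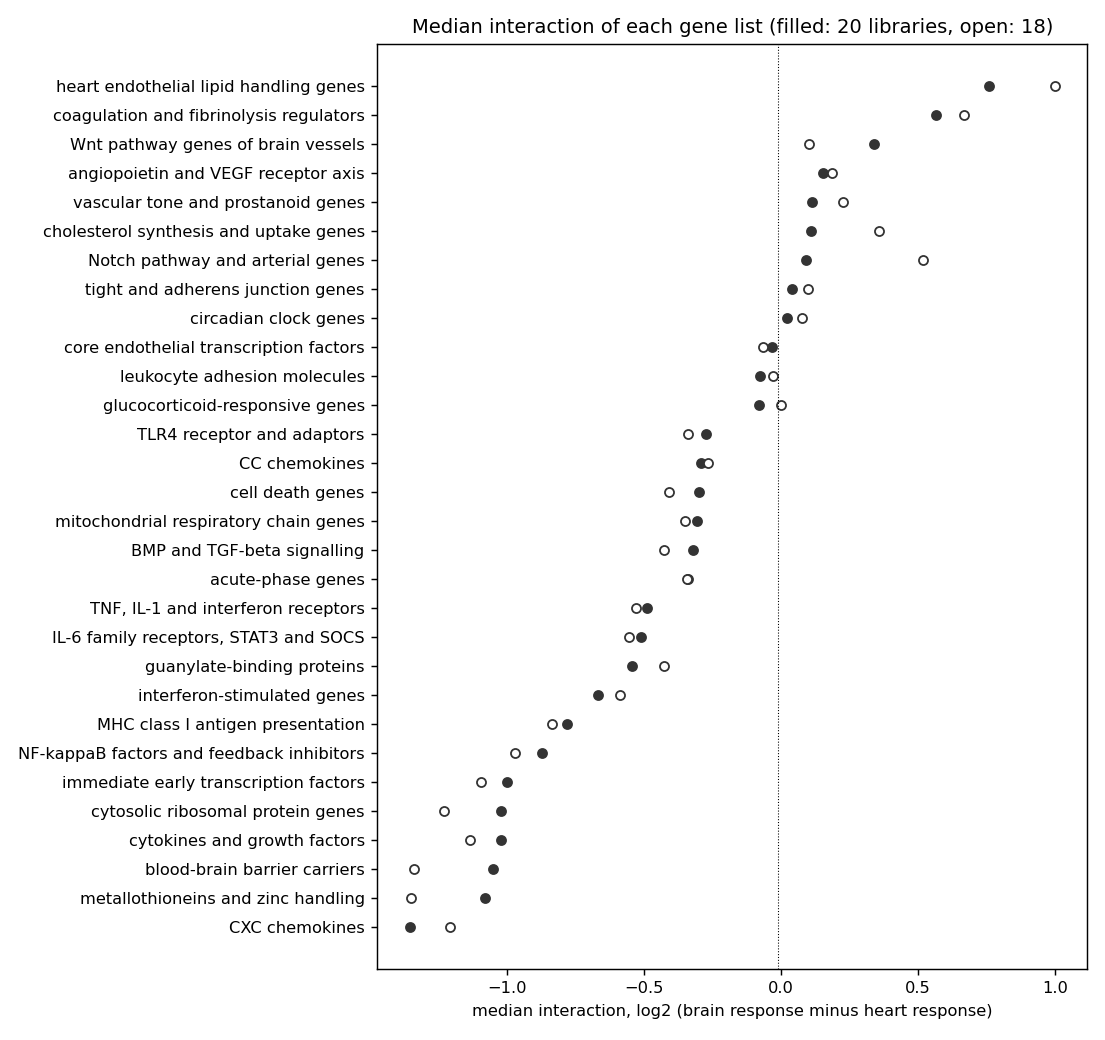
Median interaction (horizontal axis, log2, brain response minus heart response) of each gene list (vertical axis), filled points for all 20 libraries and open points without the 2 libraries near baseline. The carriers of the blood-brain barrier lie at -1.05 and the ribosomal protein genes at -1.02 with all libraries, while all genes tested lie at -0.01.

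Genes of clotting and vessel tone keep blood fluid and set the width of vessels. Of 23 coagulation and fibrinolysis genes 3 rose in brain, and 8 rose and 4 fell in heart, with an interaction median of 0.57. Adamts1 was positive, and tissue factor F3, which starts clotting (-2.51), the granzyme inhibitor Serpinb9 (-2.61) and the thrombin inhibitor Serpine2 (-1.10) were negative through a rise in heart. Thbd, thrombomodulin, fell in heart (-1.86, adjusted p = 0.00583), where brain had -0.34, and its interaction of 1.53 was called without the 2 libraries (2.01) and not with them, a setting with 7 positive and 6 negative calls in the group (called in brain 7 up and 3 down, in heart 8 up and 6 down). Of 27 vascular tone and prostanoid genes 3 rose and 1 fell in brain, and 7 rose and 2 fell in heart, with no interaction call (median 0.12). Ptgs2, the inducible cyclooxygenase, rose by 3.84 in brain and 3.45 in heart. This group had, without the 2 libraries (called in brain 8 up and 3 down, in heart 9 up and 11 down), 6 positive and 4 negative calls.

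Endothelial receptors and identity genes set how vessels respond to growth factors. Among 21 genes of the angiopoietin and VEGF axis 4 fell and 2 rose in brain, and 10 fell and 2 rose in heart (interaction median 0.15). Tek, the angiopoietin receptor, fell in both, with responses of -2.35 in brain and -2.03 in heart, as did Kdr, the main VEGF receptor, with -1.32 and -1.15. Angpt2, the antagonist released by activated endothelium, rose by 2.68 in brain (adjusted p = 0.0116), where heart had 0.95 (adjusted p = 0.150) and the interaction of 1.73 was not called. Besides Esm1, the placental growth factor Pgf (ENSMUSG00000004791.7, chr12:85166635-85177790), a ligand of Flt1, had an interaction call. Pgf was 4.50, 3.38, 3.70, 3.84 and 3.40 in brain at 0 hr and 4.70, 6.04, 4.81, 4.09 and 4.33 at 6 hr. In heart, Pgf was 6.13, 4.91, 5.23, 4.34 and 4.66 at 0 hr and 11.52, 11.63, 11.87, 10.76 and 4.10 at 6 hr. 4 heart 6 hr libraries stood above 10, replicate 5 was below every 0 hr library, and the brain groups overlapped. Pgf rose by 5.91 in heart (adjusted p = 0.000399) against 1.11 in brain (adjusted p = 0.648), an interaction of -4.81 (SE 1.05, adjusted p = 0.0239; -5.08 without the 2 libraries), called in 13 of 20 leave-one-out fits, with adjusted p up to 0.0660 without brain 0 hr replicate 1. The axis had, without the 2 libraries (called in brain 4 up and 8 down, in heart 4 up and 12 down), 7 positive and 4 negative calls. Of 20 junction genes none changed in brain, 3 rose and 6 fell in heart, and none had an interaction call (median 0.04), against 3 positive and 4 negative calls without the 2 libraries (called in brain 5 down, in heart 3 up and 9 down). Cldn5, the main claudin of the blood-brain barrier, had -1.17 in brain and 0.29 in heart, and an interaction of -1.47 that was called without the 2 libraries (-1.91, adjusted p = 0.000892) and not with them.

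Of 23 Wnt pathway genes of brain vessels 4 fell in brain, and 12 fell and 1 rose in heart (interaction median 0.34). Foxq1, a forkhead factor of brain endothelium, had the only interaction call (-2.54, adjusted p = 0.0399), is overlapped by opposite-strand exons over 3200 bases and is uncertain, and without the 2 libraries (called in brain 1 up and 15 down, in heart 2 up and 15 down) there were 2 positive and 2 negative calls. Tcf7, a transcription factor of this pathway, fell in brain (-1.91) and in heart (-1.58). Notch and arterial genes had no interaction call among 22 (median 0.09), with 1 down in brain, and 11 down and 3 up in heart. 7 were positive and 1 negative without the 2 libraries (called in brain 1 up and 8 down, in heart 3 up and 16 down), and Hey1, a Notch target, was at 4.21 (adjusted p = 3.92e-06). Of 25 BMP and TGF-beta genes 1 rose and 1 fell in brain, and 4 rose and 5 fell in heart (interaction median -0.32). Both interaction calls were ligands, Bmp2 (-3.73, adjusted p = 0.0109) and Bmp4. Bmp4 (ENSMUSG00000021835.14, chr14:46383520-46390669) was 7.27, 6.75, 5.79, 6.86 and 4.70 in brain at 0 hr and 5.17, 3.72, 4.21, 5.77 and 7.05 at 6 hr. In heart, Bmp4 was 5.65, 5.71, 6.36, 5.80 and 5.63 at 0 hr and 9.12, 8.62, 8.87, 7.48 and 6.09 at 6 hr. 4 heart libraries at 6 hr exceeded every 0 hr library, and the brain groups overlapped. Bmp4 rose by 2.67 in heart (adjusted p = 0.00309) and had -0.82 in brain (adjusted p = 0.663). Its interaction was -3.50 (SE 0.820, adjusted p = 0.0326), and -4.28 without the 2 libraries. The Bmp4 call held in 9 of 20 leave-one-out fits, with adjusted p up to 0.0718 without brain 0 hr replicate 1. It was lost with the file-name mouse as a block. The BMP group had, without the 2 libraries (called in brain 1 up and 8 down, in heart 7 up and 10 down), 4 positive and 6 negative calls. Core endothelial transcription factors, 24 tested, had 2 negative calls, Klf2 and the LIM-domain factor Lmo2 (-1.42), with 2 down in brain, 8 down and 3 up in heart, and a median of -0.03. They had, without the 2 libraries (called in brain 3 up and 8 down, in heart 5 up and 10 down), 2 positive and 3 negative calls.

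Lipid handling genes of heart endothelium serve the uptake of fatty acids. Of 29 tested, 13 fell and 3 rose in heart, 1 rose in brain, and the interaction median was 0.76. Fabp5 (ENSMUSG00000027533.10, chr3:10012548-10016607), a fatty acid chaperone with processed pseudogenes that may share its reads, was 2.92, 2.59, 4.55, 4.25 and 4.07 in brain at 0 hr and 4.28, 4.51, 5.17, 4.35 and 2.27 at 6 hr. In heart, Fabp5 was 9.41, 8.22, 8.86, 8.09 and 8.02 at 0 hr and 3.07, 4.69, 4.50, 5.56 and 7.30 at 6 hr. All heart 6 hr libraries were below the 0 hr libraries, replicate 5 by the least, and the brain groups overlapped. Fabp5 fell in heart with a response of -2.95 (adjusted p = 0.00253) and had 0.55 in brain (adjusted p = 0.845), an interaction of 3.49 (SE 0.885, adjusted p = 0.0410; 4.79 without the 2 libraries), called in 3 of 20 leave-one-out fits, with adjusted p up to 0.0853 without heart 6 hr replicate 3. Lipg (ENSMUSG00000053846.4), endothelial lipase, went the other way, with -0.29, -0.88, 0.58, 0.51 and 0.98 in brain at 0 hr and 1.36, 2.98, 1.64, 0.86 and 0.28 at 6 hr. In heart, Lipg was -0.35, -1.41, -0.38, -1.11 and -0.78 at 0 hr and 7.20, 7.54, 6.20, 6.02 and -1.34 at 6 hr. It was below 1 in every 0 hr library and in heart 6 hr replicate 5, and above 6 in the other 4 heart 6 hr libraries. Lipg rose by 7.05 in heart (adjusted p = 0.000212) and had 1.17 in brain (adjusted p = 0.632), an interaction of -5.88 (SE 1.18, adjusted p = 0.0164; -6.26 without the 2 libraries), called in 18 of 20 leave-one-out fits, with adjusted p up to 0.0512 without heart 0 hr replicate 4. Cd36, the fatty acid receptor, fell in heart (-1.45, adjusted p = 0.0269), and its interaction of 1.34 was called without the 2 libraries (2.34), where the group had 9 positive calls and 1 negative (called in brain 4 up and 7 down, in heart 5 up and 15 down).

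Genes that answer to systemic signals were compared as well. Metallothioneins and zinc genes rose in 6 of 9 cases in heart and 1 in brain (interaction median -1.08). Of these genes 8 had a negative call without the 2 libraries (called in brain 4 up and 3 down, in heart 6 up). Mt2 (ENSMUSG00000031762.7, chr8:94172664-94173568), a metal-binding protein, was 7.14, 6.32, 8.14, 7.41 and 7.36 in brain at 0 hr and 12.91, 12.35, 12.62, 11.92 and 6.44 at 6 hr. In heart, Mt2 was 2.43, 0.95, 2.46, 2.62 and 2.57 at 0 hr and 13.41, 12.66, 13.19, 11.63 and 2.63 at 6 hr. 4 libraries of both 6 hr groups reached 11.63 to 13.41, from a start that was lower in heart than in brain. Mt2 had responses of 9.43 in heart (adjusted p = 0.000235) and 3.96 in brain (adjusted p = 0.0658), and an interaction of -5.47 (SE 1.29, adjusted p = 0.0333; -5.45 without the 2 libraries), called in 8 of 20 leave-one-out fits, with adjusted p up to 0.0747 without heart 0 hr replicate 4. Mt2 shares sequence with Mt1 and overlaps opposite-strand exons by 432 bases, so its counts are uncertain. Glucocorticoid-responsive genes had no interaction call among 21 (median -0.08), with 5 up in brain, and 9 up and 1 down in heart, and 4 positive and 4 negative calls without the 2 libraries (called in brain 9 up and 1 down, in heart 11 up and 2 down). Of 19 clock genes none changed in brain, 4 rose and 7 fell in heart, and Npas2, a partner of the clock activator Arntl, had the only interaction call (-2.92, adjusted p = 0.0108). The clock genes had a median of 0.02, and 6 positive and 3 negative calls without the 2 libraries (called in brain 2 up and 1 down, in heart 5 up and 7 down). Cholesterol genes had no interaction call among 27 (median 0.11), with 1 up in brain, the hydroxylase Ch25h, and 7 up and 5 down in heart, and 8 positive calls and 1 negative without the 2 libraries (called in brain 6 up, in heart 8 up and 7 down). Of 27 cell death genes 3 rose in brain, 15 rose and 1 fell in heart, and the proapoptotic Bid (-3.72) and Bcl2l11 (-2.40) had negative calls through a rise in heart (median -0.30). The cell death genes had 2 positive and 8 negative calls without the 2 libraries (called in brain 14 up and 1 down, in heart 19 up and 1 down).

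Ribosomal protein genes encode the building blocks of the ribosome. Of 61 tested, 46 rose in heart (median 1.19), none changed in brain (median 0.15), and 6 had a negative interaction call (median -1.02), 4 with RLE scaling, 21 with DESeq2 and 35 without the 2 libraries (called in brain 1 up, in heart 49 up). Among them were Rps18 (-2.75), Rps3a1 (-2.17) and Rplp2. Rplp2 (ENSMUSG00000025508.13, chr7:141447370-141451585), an acidic protein of the ribosomal stalk, was 5.33, 5.33, 6.33, 6.55 and 6.04 in brain at 0 hr and 6.91, 6.11, 6.46, 6.25 and 5.49 at 6 hr. In heart, Rplp2 was 5.35, 5.43, 5.40, 5.46 and 5.86 at 0 hr and 8.95, 8.05, 8.94, 7.60 and 5.24 at 6 hr. The 4 series 2 heart libraries at 6 hr were above every heart 0 hr library, replicate 5 was below them, and brain overlapped. Rplp2 rose by 2.28 in heart (adjusted p = 0.000695) and had 0.15 in brain (adjusted p = 0.946), an interaction of -2.14 (SE 0.516, adjusted p = 0.0358; -2.44 without the 2 libraries), called in 7 of 20 leave-one-out fits, with adjusted p up to 0.0842 without heart 0 hr replicate 4. Rpl22, whose product carries the tag, rose by 0.88 in heart (adjusted p = 0.00513), had -0.15 in brain and missed the interaction threshold (-1.03, adjusted p = 0.0594). Most ribosomal protein genes have pseudogene copies, and the heart 6 hr libraries of series 2 had the highest share of reads aligned to several places, so these values are uncertain and what part this had was not tested. Of 38 respiratory chain genes 8 rose in heart, none changed in brain and none had an interaction call (median -0.31), against 8 negative calls without the 2 libraries (called in brain none, in heart 13 up).

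Some cell type markers changed with the treatment, and their part in the results was not tested. The pan-endothelial sum went from 5337 to 3513 CPM in brain and from 19388 to 12006 CPM in heart, where the 6 hr libraries had 8594, 10220, 9125 and 11698 CPM and replicate 5 had 20391. Of the 20 markers 7 fell in brain, and 11 fell and 1 rose in heart, with no interaction call, but 3 positive and 3 negative ones without the 2 libraries (called in brain 1 up and 9 down, in heart 1 up and 14 down). Fewer endothelial cells, less RNA per cell, a changed share of RNA from other cells and other causes cannot be told apart in these samples. Neutrophil markers summed to 1.60 CPM in heart at 0 hr and to 46.9 CPM (SD 27.4) at 6 hr, with S100a9 the most abundant at 27.1 CPM and 7 of 16 markers at 0 at 0 hr, and 7 of 9 tested rose. In brain they were 34.2 CPM at 0 hr and 123 CPM at 6 hr, none called, with 465 CPM in brain 6 hr replicate 2. No neutrophil marker had an interaction call with all 20 libraries, and 5 had a negative one without the 2 (called in brain 1 up, in heart 7 up). Platelet markers went from 22.7 to 512 CPM in heart, of which Itgb3, an integrin that endothelial cells also express, made up 437 CPM, and from 7.51 to 10.9 CPM in brain. Itgb3 and Pf4, 2 of 3 platelet markers tested, had a negative interaction call (-3.58 and -4.16), as did 2 without the 2 libraries (called in brain 1 up, in heart 2 up). Neuron markers had no interaction call, none changed in brain, and in heart 2 rose and 1 fell, Stmn2 (-2.51, adjusted p = 0.00436), the most abundant there at 0 hr. The neuron markers had 3 positive and 2 negative interaction calls without the 2 libraries (called in brain none, in heart 2 up and 3 down). Cardiomyocyte markers had no call in either tissue or in the interaction, and without the 2 libraries 3 rose in heart. Mural cell markers had no call with or without the 2 libraries. They summed to 2467 CPM in brain at 0 hr and, at 6 hr, to 4586 CPM in replicate 2 and 723 to 1734 CPM in the other 4 libraries, and to 222 and 206 CPM in heart. Astrocyte markers had 1 negative interaction call, Sox9 (-3.37), with 2 up and 1 down in heart, and microglia and macrophage markers 1, Tmem119 (-2.91), with 1 up and 3 down in heart. Without the 2 libraries astrocyte markers had 2 positive and 1 negative interaction calls (called in brain 1 down, in heart 2 up and 3 down), and microglia and macrophage markers 5 and 1 (called in brain 1 up and 1 down, in heart 1 up and 4 down). Among erythroid markers 1 had a negative call, Hba-a2 (-3.53), which has a near-identical copy, and 3 rose in heart, against 2 negative calls without the 2 libraries (called in brain none, in heart 4 up). Oligodendrocyte, fibroblast, choroid plexus and lymphocyte markers had no interaction call and none changed in brain with all 20 libraries. In heart 1 oligodendrocyte marker and 4 fibroblast markers fell, 2 choroid plexus markers rose and 2 fell, and 1 lymphocyte marker rose and 1 fell. Leaving out the 2 libraries gave positive interaction calls for 3 choroid plexus (called in brain none, in heart 3 down) and 1 oligodendrocyte marker (called in brain none, in heart 1 down), 1 positive and 1 negative for lymphocyte markers (called in brain 1 up and 2 down, in heart 1 up and 1 down) and none for fibroblast markers (called in brain 4 down, in heart 5 down). The choroid plexus sum in heart was almost entirely Aqp1, a water channel that heart endothelium expresses and that is also on the lipid handling list, with a mean of 7103 CPM at 0 hr and, at 6 hr, 1595, 2348, 2251 and 1304 CPM in replicates 1 to 4 and 11074 CPM in replicate 5.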

How the data were processed

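The authors aligned reads with STAR 2.4.2 to mm10 and counted them per gene with HTSeq 0.6.1, and the deposited files hold raw counts for 52550 gene entries and 5 non-gene entries. The non-gene entries held 31.3% to 56.3% of the counts of the 20 libraries. 217 count files were summed to 98 libraries by tissue, time and replicate number, and the 20 fitted libraries came from 62 files. Gene names (52403 matched IDs), coordinates and exon overlaps are from GENCODE M21 for mm10, and neither the annotation release of the counts nor the strand setting of the counting is given in the sources used here. Counts were filtered with filterByExpr, scaled by TMM and tested with edgeR 4.0.16 (R 4.3.3) by the quasi-likelihood F test, two-sided, with Benjamini-Hochberg adjustment over all genes tested and a threshold of 0.05. The design had 4 group means and library series, with 15 residual degrees of freedom. Levels were computed as log2 CPM after adding a prior of 2 counts, and SE is the absolute log2 value over the root of F. Levels and marker sums used TMM-scaled library sizes. The CPM of 3 counts, the CPM of left-out libraries and the Mfsd2a ratio used unscaled totals. Alternatives used DESeq2 1.42.0, limma 3.58.1 and other filters, covariates and libraries. The code was tested on simulated data. It recovered few small interactions and, when first run, only a minority of all those simulated, small and large together. The first pass criterion failed and was replaced after its output was seen by criteria on bias, sign and false calls. Tables and figures used Python 3.11.15. That brain and heart libraries of one number share an animal was not established. Members and lists were chosen with earlier results of these data known. Named genes were, per direction, the 12 largest interactions at a mean level of 4 log2 CPM or more with a call in a tissue and no overlap of library shifts (each 6 hr library minus the mean of its tissue at 0 hr), up to 8 genes with opposite responses, up to 4 called members of each list, and 16 genes of the study. The first 2 parts were also taken from the 18 libraries, an addition made after the data were seen. Further list members are mentioned as examples, chosen after their values were seen. The 22 genes given per library were picked after their values were seen, mostly among these, and Lcn2, Tfpi2, Stc1, Gpr65, Plk2 and Il10rb were named after their values were seen. 1 gene that met the naming rule is not reported here.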

Additional observations from a re-analysis of the deposited data

Results flagged for a closer look

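Libraries were tested for a value far from the rest in 148 groups of 5. Most of these groups were of the 22 genes shown per library, picked after their values were seen, so the count cannot be set against chance. Such a value was found in 27 groups, and 20 of the 27 fell on the 2 libraries near baseline. For brain 6 hr replicate 6 these were the log2 CPM of Lcn2 (8.33), Adamts1 (5.55), Ccl11 (-1.48), C3 (0.86), Slc7a5 (9.50), Atp10a (7.26) and Mt2 (6.44). For heart 6 hr replicate 5 they were the log2 CPM of Cxcl1 (2.24), Lcn2 (5.75), Prg4 (5.82), C3 (4.36), Slc7a5 (3.63), Pgf (4.10), Csf1 (6.99), Mt2 (2.63), Lipg (-1.34) and Akap5 (4.45). The same library had the highest summed markers of endothelium (20391 CPM), neurons (98.5 CPM) and choroid plexus (11104 CPM) in its group. The remaining ones were Ccl11 (0.15) and Mt2 (0.95) in heart 0 hr replicate 2, Bmp4 (6.36) in heart 0 hr replicate 3, Rplp2 (5.86) in heart 0 hr replicate 5, and the astrocyte (9660 CPM), mural cell (4586 CPM) and neutrophil (465 CPM) sums in brain 6 hr replicate 2.

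Brain and heart responses differed by the interaction test for 20 of the 22 genes shown per library, which were mostly chosen for such a call, against 549 of 17909 genes tested (3.07%). Of these calls, those of Ccl11, C3, Fabp5 and Akap5 held in 3 of the 20 leave-one-out fits each. The log2 interaction was positive for Prg4 (2.94), Esm1 (4.13), Adamts1 (2.77), Ccl11 (5.21), C3 (2.48), Fabp5 (3.49) and Akap5 (3.56). It was negative for Car4 (-2.41), Mfsd2a (-6.23), Slc7a5 (-4.14), Slc2a1 (-2.19), Atp10a (-3.72), Pgf (-4.81), Csf1 (-2.73), Vcam1 (-2.54), Bmp4 (-3.50), Mt2 (-5.47), Lipg (-5.88), Klf2 (-1.45) and Rplp2 (-2.14).

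The 4 libraries left out for their low share of reads on genes held a signal of the treatment. In brain 6 hr replicate 5, Lcn2 had 341.9 CPM and Cxcl1 291 CPM. In heart 6 hr replicate 6, Lcn2 had 203 CPM and Cxcl1 83.5 CPM. Both genes had 0 counts in the left-out 0 hr libraries, which allows up to 5.15 CPM in brain and 4.76 CPM in heart at 3 counts. Left-out libraries held 582145 to 659033 counts on genes.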

How the results depend on the processing

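Counts of heart calls stayed within 1.5 times in most settings and in all 20 leave-one-out fits, brain counts in 12 (up) and 11 (down) and interaction counts in 4 (positive) and 4 (negative) of these fits, and the cause was not tested. Heart calls up and down were 3482 and 3012 with all 20 libraries, and calls down were the more numerous with limma-voom (3246 and 3480), at a mean level of 1 log2 CPM or more in both tissues (2405 and 3083), within series 2 (4273 and 4532), without heart 6 hr replicate 5 (4437 and 4461) and without both libraries near baseline (4485 and 4579). Positive and negative interaction calls were 923 and 1227 with DESeq2, 2270 and 2244 within series 2, 45 and 161 without library series, and 62 and 98 at a mean log2 CPM of at least 1 in both tissues. Limma-voom turned the balance, with 569 positive and 317 negative calls, positive calls were 235 with no low-count filter, and negative calls 171 with series by tissue and 227 with the low-share libraries kept. With lung in the fit there were 1 and 24, and without both series 1 libraries labelled 6 hr, added after seeing the data, 2585 and 2864. Leaving out 1 library gave 26 to 2720 positive and 84 to 2864 negative calls. Brain calls up were 584 with DESeq2, 976 within series 2, 181 with lung, 1067 without both and 55 to 638 leaving out 1 library. Brain calls down were 325 with DESeq2, 254 with limma-voom, 188 with no filter, 29 without series, 795 within series 2, 12 with lung, 1201 without both and 14 to 586 leaving out 1 library. Heart calls up were 1117 with lung, 2137 at an absolute log2 above 1 and 2624 to 4437 leaving out 1 library, and calls down 4532 within series 2, 542 with lung, 4579 without both and 2096 to 4461 leaving out 1 library. With the replicate number as a block there were 2420 positive and 2560 negative calls, but there each library near baseline is alone in its block and adds nothing, and with the mouse read from file names as a block, where libraries with no animal number in the name were joined by series and time, there were 187 and 234, which kept 248 of the 549 calls. Deviations of brain and heart libraries correlated more in same-numbered pairs (median 0.296, 8 of 9 above 0.1) than in other pairs (median -0.037, 12 of 41), and more in pairs with the same file-name mouse (0.377, 9 of 10) than in others (-0.055, 11 of 40), but not in every pair, 2 of these 10 pairs share only the lack of a number, and no label states shared animals. Of 95 named genes 69 were called, and all 69 stayed called with DESeq2, within series 2, with the replicate block and without both libraries. Still called were 63 with RLE scaling, 54 with the low-share libraries kept, 51 with the mouse block, 48 with limma-voom, 43 with series by tissue, 41 without series and 11 with lung. At a mean log2 CPM of at least 1 in both tissues 39 of 59 stayed called. Leaving out 1 library kept from 26 (without brain 6 hr replicate 3) to all 69 (without brain 6 hr replicate 6 or heart 6 hr replicate 5). Named genes not called with the mouse block included Peg10, Maf, Nampt, Car13, Dbn1, Bmp4, Tent5a, Il11ra1, Egr3, Klf2, Il18, C3, Ifit1bl1, Serpinb9, F3, Lmo2 and Rps3a1. Uncalled interactions that changed sign were those of Acod1 (a fitted value with a 0 hr group of at most 3 counts per library, 0.025 with the low-share libraries kept, -1.05 to 0.69 leaving out 1 library), Il1b (-1.24 to 0.48 leaving out 1 library) and Sele (0.49 with limma-voom, 0.56 within series 2, -1.26 to 1.46 leaving out 1 library, the latter without brain 0 hr replicate 2). At 3 counts the libraries reach 0.113 to 0.343 CPM, which limits statements on genes near that level.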
